A study of Mus musculus with 12 samples.

Results

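Autism-linked chromatin and transcription regulators were examined across 4 groups of mouse brain libraries. The 35 genes were taken from a list of mouse symbols, and all 35 were found by Ensembl identifier among the 56748 genes of the count table. All 35 also passed the filter on low counts, which kept 17995 genes. The tissue is labelled brain, and the series text calls it adult forebrain. The groups, of 3 libraries each, were wildtype (WT) and htr3a Notch KO (htr), here called knockout, and each genotype after valproic acid exposure before birth (WT_V and htr_V), here called exposed wildtype and exposed knockout. The sources used here give neither the Notch gene that was deleted nor its driver, nor what htr3a stands for, the strain, the exact age, or the dose and day of exposure. Separate animals are not stated either, so p-values measure only the spread between these libraries.

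The genes encode proteins that place, read or remove marks on histones, slide or evict nucleosomes, bind promoters and enhancers, or control the stability of such proteins. Damaging variants in one copy of their human counterparts are known causes of autism and intellectual disability, so gene dose matters for many of them. Most are active in the developing and in the adult brain, in neurons and in other cells. Valproic acid is an antiepileptic drug that inhibits histone deacetylases, and rodents exposed to it as fetuses serve as an autism model. The comparison addressed whether these regulators differ in adult tissue after exposure, in the Notch knockout, or with both.

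Total counts ran from 16887885 to 24944681 per library. Transcripts of the mitochondrial genome held 16.4% of counts in exposed wildtype replicate 3 and 18.6% in exposed knockout replicate 1, against 12.2% to 15.2% elsewhere. Notch1, Notch2, Notch3, Notch4 and Rbpj, the receptors and their DNA-binding partner, did not pass the test in the knockout in either treatment, with adjusted p from 0.749 to 1, so their counts did not separate the genotypes. Xist, the RNA of the inactive X chromosome in female cells, had 12 counts in exposed wildtype replicate 3 and 6 in exposed knockout replicate 3, against 5919 to 10767 elsewhere. Markers of neurons, astrocytes and oligodendrocytes were present in every library. Summed markers of striatal projection neurons were at 1860 to 1960 CPM (counts scaled to library size) in wildtype, 1410 to 2160 in knockout, 1180 to 1330 in exposed wildtype and 1280 to 1550 in exposed knockout. Those of choroid plexus were at 1310 to 2030, 1810 to 1960, 1330 to 2630 and 2580 to 3100 CPM, highest in exposed knockout, and their part in the results was not tested. In whole tissue, fewer cells of a type and less RNA per cell cannot be told apart.

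The regulators were long genes. Their median exon length was 14018 bases, against 4455 over the 14825 protein-coding genes tested, and their median genomic span was 119 against 25.1 kb. The median GC content of their longest transcripts was 47.9%, against 49.9%. Per kilobase of exon their median level was 4.03 CPM, close to the 3.99 of all protein-coding genes. Not divided by length, the median was 49.1 CPM against 19.5, so more counts stood behind each regulator. The median coefficient of variation within groups was 6.01%, against 9.09% at the lower counts of all protein-coding genes.

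Levels per kilobase of exon spanned a wide range. The highest medians over the 12 libraries were those of Cul3 (20.2 CPM per kb), the scaffold of a ubiquitin ligase, Cic (19.9), a repressor of ETS-family genes, and Hivep2 (16), a zinc-finger factor. Cul3 spanned 17.9 to 21.6 and Cic 17.3 to 22.3 CPM per kb, so the top pair were not separated by their spread. The lowest medians were those of Phip (0.89), a bromodomain protein, Asxl3 (0.3), a partner of the histone H2A deubiquitinase BAP1, and Adnp (0.184), a homeodomain protein that acts with CHD4. Adnp had only 13 to 32 counts per library. Of its exon bases 82.1% lie also in Gm20716, an annotated readthrough transcript on the same strand, which had 0 to 1 counts. The sources used here do not state how reads from shared exons were counted, so the level of Adnp is uncertain. Chd2, a chromatin remodeller, shares 19.3% of its exon bases with other genes, mostly with 1810026B05Rik on the same strand.

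Promoters of the regulators were rich in CpG dinucleotides, the sites of DNA methylation in mammals. RefSeq promoters (build GRCm38.p6, 250 bases before to 50 after the start) were matched for 26 of 35 genes, with 37 promoters in all. Their median GC content was 70.3%, against 52.7% over 32851 promoters of 27025 genes. That background takes in genes that were not tested here, while all 35 regulators passed the count filter. The part of expression in the difference was not tested. The ratio of observed to expected CpG was over 0.6 in 26 of the 37, or 70.3%, against 35.8% of all promoters. The same genes can hold both kinds. Dyrk1a, a kinase, had promoters with ratios of 0.39, 0.73 and 1.22.

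At a Benjamini-Hochberg adjusted p under 0.05 (edgeR's quasi-likelihood test over all tested genes), Foxp1 in exposed knockout against wildtype was the single regulator past the test in any comparison. After exposure in wildtype, 0 of 35 passed, against 0.895% of all genes, and 5 had an unadjusted p under 0.05 (14.3%, against 14.2%). DESeq2's Wald test called 1 there, Kdm6b, and limma-voom 0. After exposure in knockout, 0 of 35 passed, against 0.0556% of all genes, with 7 at an unadjusted p under 0.05 (20%, against 14.9%). DESeq2 called 2, Foxp1 and Cul3, and limma-voom 0. In knockout against wildtype, 0 of 35 passed, against 0.0389% of all genes, with 0 at an unadjusted p under 0.05 (against 3.13%) and 0 by either other tool. In exposed knockout against exposed wildtype, 0 passed, against 0.05%, with 4 at an unadjusted p under 0.05 (11.4%, against 7.44%) and 0 by either other tool. The interaction, which asks whether exposure acted differently in the genotypes, had 0 regulators past edgeR's test, as it had 0% of all genes. There 1 regulator, Bcl11a, had an unadjusted p under 0.05 (2.86%, against 5.97%), and DESeq2 and limma-voom each called 0. In exposed knockout against wildtype, 1 of 35 passed, against 1.01% of all genes, with 7 at an unadjusted p under 0.05 (20%, against 15.8%). DESeq2 called Foxp1 and Myt1l there, and limma-voom 1 gene.

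The sizes of the differences were small. Leaving out Adnp, the largest log2 fold change of any regulator was 0.38 in either direction in exposed against unexposed wildtype, 0.36 in the knockout, and 0.2 in both comparisons of genotype. The 95% interval lay within 1.5-fold for 33 of 35 regulators in wildtype and for 34 of 35 in each of the other 4 pairwise comparisons. It lay within 1.25-fold for 29 after exposure in wildtype, 25 after exposure in knockout, 33 in knockout against wildtype, 30 in exposed knockout against exposed wildtype and 27 in exposed knockout against wildtype. A change of more than 1.5-fold lay outside the interval of nearly every one of these genes.

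**Figure D1:**
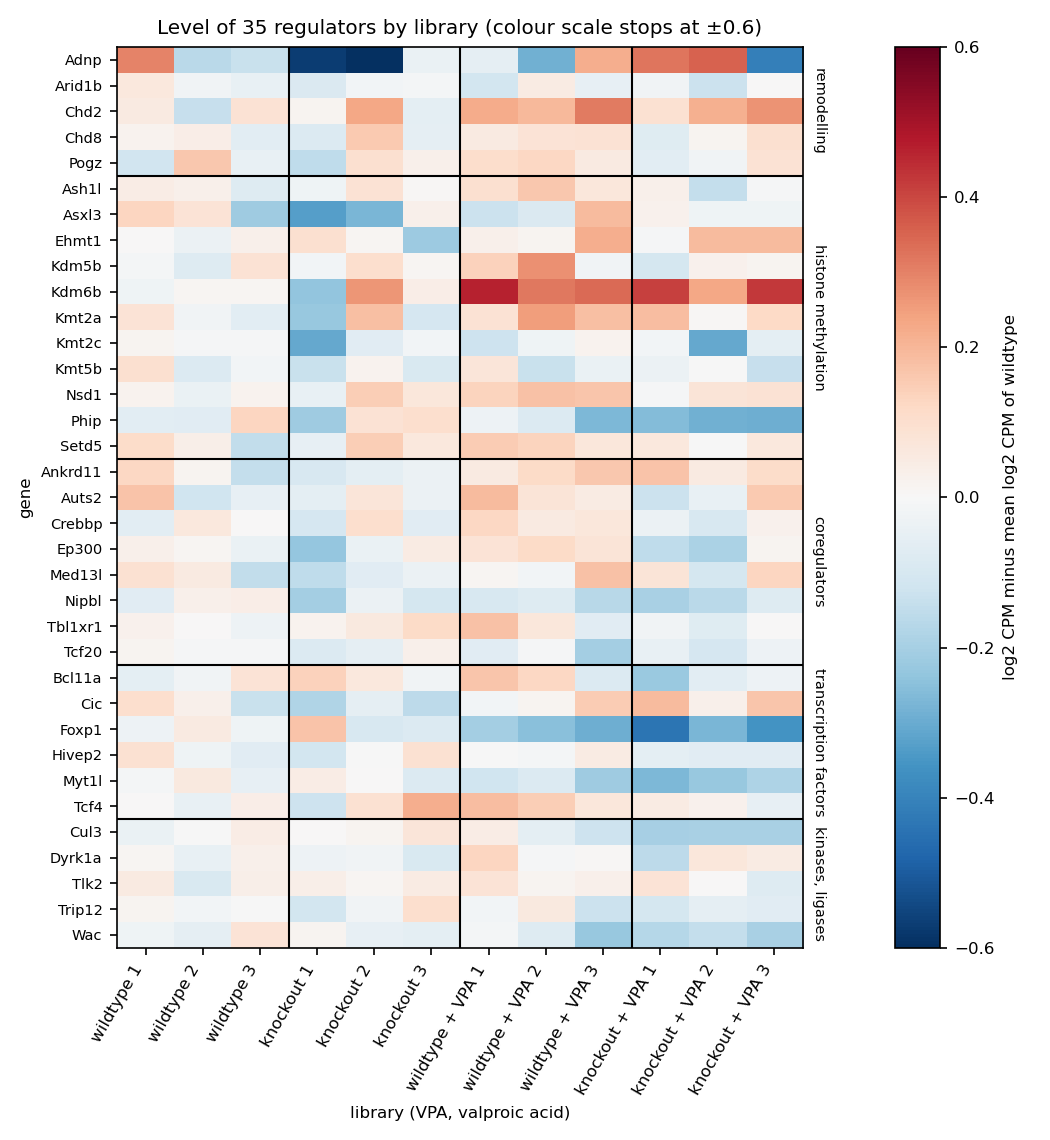
Log2 CPM of the 35 regulators (vertical axis, grouped by role) in each of the 12 libraries (horizontal axis), as the difference from the gene's mean over the 3 wildtype libraries; red is higher, blue lower, and VPA is valproic acid. Foxp1 was lower in all 6 exposed libraries than in all 6 unexposed ones, Kdm6b was high in the exposed libraries, and knockout replicate 1 was the library with the lowest levels (median -0.102 from each gene's mean over all libraries).

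Among the 6 sequence-specific transcription factors (Foxp1, Bcl11a, Tcf4, Myt1l, Cic, Hivep2), Foxp1 encodes a forkhead repressor that shapes projection neurons of the cortex and striatum. RefSeq gives it 3 promoters on the minus strand of chromosome 6, and they are shown because Foxp1 is the gene that passed the test and its starts differ widely in CpG content. Capitals mark each CpG. Promoter 1 (GRCm38.p6, chr6:99520944-99521243) holds 13, promoter 2 (chr6:99266466-99266765) holds 5 and promoter 3 (chr6:99028249-99028548) holds 44. Which of them made the counted transcripts was not measured.
Foxp1 promoter 1: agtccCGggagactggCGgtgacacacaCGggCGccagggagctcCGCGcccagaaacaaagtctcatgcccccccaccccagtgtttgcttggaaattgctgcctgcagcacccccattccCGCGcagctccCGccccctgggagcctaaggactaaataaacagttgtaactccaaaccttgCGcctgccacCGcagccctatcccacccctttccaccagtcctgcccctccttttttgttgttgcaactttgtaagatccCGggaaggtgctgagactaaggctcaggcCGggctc
Foxp1 promoter 2: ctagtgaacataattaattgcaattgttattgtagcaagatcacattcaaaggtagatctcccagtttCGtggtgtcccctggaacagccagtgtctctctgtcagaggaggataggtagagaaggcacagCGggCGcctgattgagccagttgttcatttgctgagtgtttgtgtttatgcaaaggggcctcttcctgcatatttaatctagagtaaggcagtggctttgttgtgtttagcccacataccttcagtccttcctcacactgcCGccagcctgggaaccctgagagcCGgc
Foxp1 promoter 3: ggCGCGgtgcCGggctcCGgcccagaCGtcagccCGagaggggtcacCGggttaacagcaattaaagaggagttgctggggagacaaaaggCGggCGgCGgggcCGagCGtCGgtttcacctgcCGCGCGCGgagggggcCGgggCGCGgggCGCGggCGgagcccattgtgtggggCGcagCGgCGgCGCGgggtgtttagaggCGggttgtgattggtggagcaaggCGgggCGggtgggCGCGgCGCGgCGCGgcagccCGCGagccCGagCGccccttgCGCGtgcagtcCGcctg

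Foxp1 was at 65.9, 69.8 and 66.1 CPM in wildtype and at 75.7, 63 and 63.5 in knockout. It was at 58.4, 56.6 and 54.9 CPM in exposed wildtype and at 49.6, 55.6 and 52.5 in exposed knockout. Every exposed library lay below every unexposed one, from 49.6 to 58.4 against 63 to 75.7 CPM. Of the 35 regulators, Foxp1 and Myt1l were lower in this way over both genotypes, against 2.07% of all tested genes, and 0 were higher, against 1.07%. Foxp1 fell in exposed knockout against wildtype, by 21.8% (log2 fold change -0.35, 95% interval -0.51 to -0.2, adjusted p = 0.0235). Within knockout the log2 fold change was -0.36 (-0.51 to -0.2, adjusted p = 0.0593), and within wildtype it was -0.25 (-0.4 to -0.09, adjusted p = 0.104). Knockout alone left Foxp1 at a log2 fold change of 0 (-0.15 to 0.16), and the interaction was -0.11 (-0.33 to 0.11, adjusted p = 0.938).

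In exposed knockout against wildtype the log2 fold change of Foxp1 was -0.4 to -0.32 when each library was left out, while its call was lost in some of these fits. The adjusted p was 0.07 without wildtype replicate 2, 0.0693 without wildtype replicate 3, 0.12 without exposed knockout replicate 1 and 0.0819 without exposed knockout replicate 3. It was 0.0948 with a term for the libraries lacking Xist and 0.0522 without both of them. It was 0.135 with an offset for GC content and exon length (a correction per library, fitted to all genes with both values), under which the log2 fold change was -0.3. Striatal markers were lower beside Foxp1 in the exposure comparisons: 10 of 10 were lower in exposed wildtype (4 past the test) and in exposed knockout (2 past the test) against wildtype, and 9 of 10 were lower in exposed against unexposed knockout, with 0 past the test. Their median log2 fold change after exposure was -0.69 in wildtype and -0.33 in knockout, where Foxp1 was at -0.25 and -0.36. In the comparisons of genotype, 0 of 10 striatal markers passed the test. In knockout against wildtype 10 of 10 were lower (median -0.17) with Foxp1 at 0, and in exposed knockout against exposed wildtype 10 of 10 were higher (median 0.16) with Foxp1 at -0.11. Olfactory bulb markers, 5 tested, had the same directions as the striatal ones, with 5 of 5 lower in the exposure comparisons. Inhibitory interneuron markers (6 of 6) and blood markers (5 of 5) were also lower in the exposure comparisons, with 0 past the test. Microglia markers went the other way, 6 higher and 0 lower after exposure in wildtype and 5 higher and 1 lower in knockout. The part of any of these in the level of Foxp1 was not tested.

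Myt1l encodes a zinc-finger factor that maintains neuronal identity. It was at 122, 128 and 119 CPM in wildtype, 127, 123 and 116 in knockout, 113, 116 and 106 in exposed wildtype and 102, 105 and 108 in exposed knockout. The exposed groups lay below the unexposed ones, with the highest exposed and the lowest unexposed library meeting at 116 CPM after rounding. Its log2 fold change was -0.23 in exposed knockout against wildtype (adjusted p = 0.0781), -0.22 within knockout (0.128) and -0.14 within wildtype (0.316).

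Bcl11a, a zinc-finger repressor of projection neurons, was at 46.4, 47.6 and 51.2 CPM in wildtype, 53.2, 50.5 and 47.6 in knockout, 54.3, 52.7 and 45.7 in exposed wildtype and 41.4, 46.3 and 47.4 in exposed knockout. After exposure the knockout groups did not overlap, while the wildtype groups did. Its interaction was -0.24 on the log2 scale (-0.47 to -0.01, adjusted p = 0.833), which did not pass the test. Against exposed wildtype the exposed knockout was at -0.18 (adjusted p = 0.619).

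Cic was at 216, 206 and 184 CPM in wildtype, 178, 194 and 181 in knockout, 199, 204 and 224 in exposed wildtype and 230, 206 and 226 in exposed knockout. The exposed knockout libraries lay above all 3 unexposed knockout libraries, and the wildtype groups overlapped. The log2 fold change after exposure was 0.26 in knockout (adjusted p = 0.126) and 0.05 in wildtype (0.833), and the interaction was 0.21 (-0.01 to 0.43, adjusted p = 0.843). In knockout against wildtype Cic had a log2 fold change of -0.13 (adjusted p = 1). Tcf4, a basic helix-loop-helix factor, and Hivep2 had log2 fold changes from -0.2 to 0.14 and from -0.07 to 0.01 over the 6 comparisons.

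**Figure D2:**
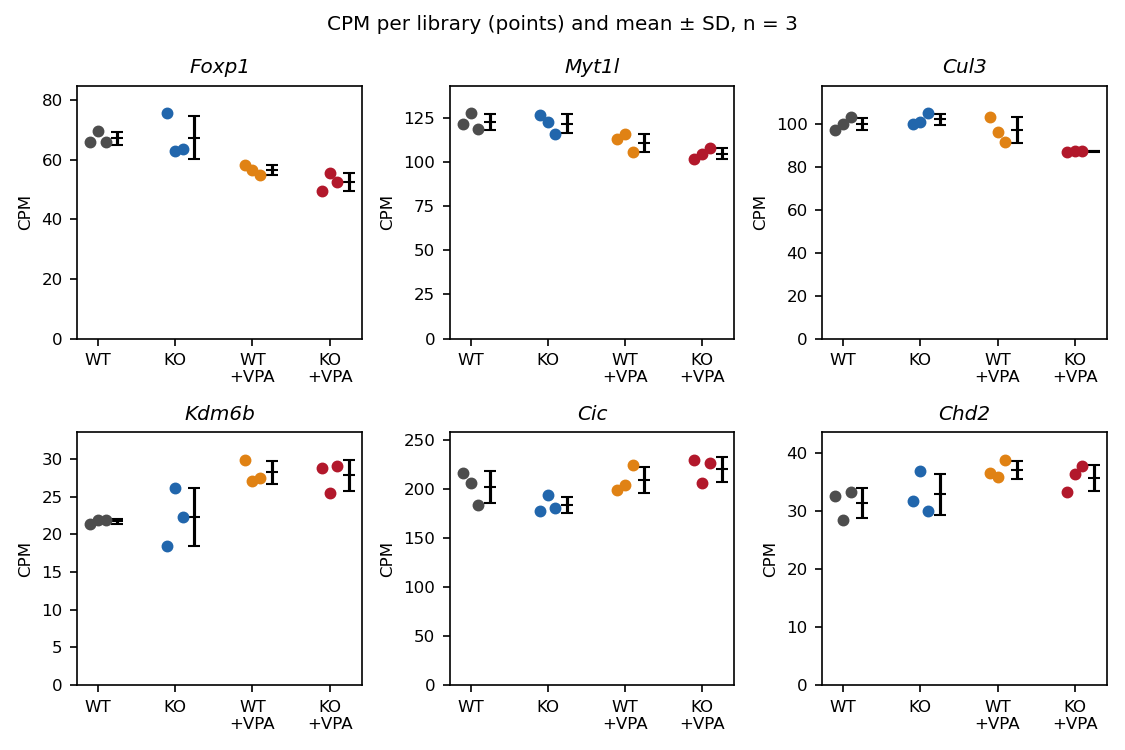
CPM (vertical axes, from 0) of 6 regulators in the 4 groups; points are libraries and the bar beside them is the mean ± SD of 3 libraries (KO, knockout; VPA, valproic acid). Foxp1 and Myt1l were lower in exposed libraries, Kdm6b was at 25.5 to 29.9 CPM in exposed libraries, and Cul3 was at 87 to 87.5 CPM in exposed knockout.

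The 11 genes grouped as writers, readers and erasers of histone methylation (Ash1l, Kmt2a, Kmt2c, Kmt5b, Setd5, Nsd1, Ehmt1, Kdm6b, Kdm5b, Asxl3, Phip) had 0 members past the test in each of the 6 comparisons. Asxl3, the partner of BAP1, was placed in this group although it is not a methylation enzyme. Kdm6b encodes a demethylase that removes the repressive mark on lysine 27 of histone H3. It was at 21.3, 21.9 and 21.9 CPM in wildtype, 18.4, 26.1 and 22.3 in knockout, 29.9, 27 and 27.5 in exposed wildtype and 28.8, 25.5 and 29.1 in exposed knockout. Both exposed groups lay above wildtype, and exposed knockout overlapped knockout through knockout replicate 2. The log2 fold change was 0.38 in wildtype (0.17 to 0.59, adjusted p = 0.07), 0.32 in knockout (0.11 to 0.53, adjusted p = 0.151) and 0.36 in exposed knockout against wildtype (adjusted p = 0.0769). In wildtype it passed in a fit of only the 6 libraries compared (adjusted p = 0.0327), without knockout replicate 1 (0.0284) and without knockout replicate 2 (0.0444), and leaving out each library in turn gave 0.0284 to 0.255. With an offset for GC content and exon length the value in wildtype was 0.3 (adjusted p = 0.228).

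The methyltransferases differed among themselves after exposure in wildtype, and 0 passed the test. Ash1l, Kmt2a and Nsd1, which methylate histone H3, had higher groups that did not overlap, with log2 fold changes of 0.11, 0.17 and 0.16, where 9.84% of all genes were higher in this way. Setd5 (0.11), Ehmt1 (0.09), Kmt2c (-0.04) and Kmt5b (-0.03) overlapped. In exposed against unexposed knockout Ash1l, Kmt2a and Nsd1 were at -0.06, 0.14 and -0.01, and all 3 overlapped. Kmt2c, the catalytic subunit of an enhancer methyltransferase complex, was at 47, 46.3 and 46.3 CPM in wildtype and at 37.6, 44.4 and 46 in knockout, which lay below it. Its log2 fold change was -0.13 (-0.3 to 0.05, adjusted p = 1), and the exposed groups, at 42.7 to 47.2 and 37.6 to 46 CPM, overlapped. Phip was at 25.5 to 26.1 CPM in exposed knockout, below the 26.9 to 33.5 of knockout and the 29.8 to 34.2 of wildtype, with log2 fold changes of -0.28 against each (adjusted p = 0.173 and 0.132). Kmt5b, Setd5, Ehmt1 and Kdm5b lay between -0.18 and 0.16 in all 6 comparisons, and Asxl3, at 3.77 to 5.4 CPM, between -0.2 and 0.19.

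The 5 nucleosome remodelling genes (Chd8, Chd2, Arid1b, Adnp, Pogz) likewise had 0 members past the test in each comparison. Chd2 was at 32.5, 28.4 and 33.2 CPM in wildtype, 31.6, 36.8 and 30 in knockout, 36.5, 35.8 and 38.8 in exposed wildtype and 33.3, 36.3 and 37.7 in exposed knockout. Both exposed groups lay above wildtype, and exposed knockout overlapped knockout. The log2 fold change was 0.24 in wildtype (0.06 to 0.42, adjusted p = 0.19) and 0.12 in knockout (-0.06 to 0.3, adjusted p = 0.536). Chd8, a remodeller strongly tied to autism, was at 46.6 to 55.1 CPM over the 12 libraries, with log2 fold changes from -0.07 to 0.07. Arid1b, a subunit of the BAF remodelling complex, was at 58.5 to 66.7 CPM and -0.05 to 0.03. Pogz, a zinc-finger protein that binds heterochromatin protein 1, was at 32.9 to 40.9 CPM and -0.09 to 0.09. Adnp, with its few counts, had an interval of -0.14 to 1.31 for exposure in knockout and of -0.36 to 1.64 for the interaction, so its changes were not resolved at this depth.

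Among the 8 coactivators, corepressors, Mediator and cohesin loading genes (Ep300, Crebbp, Tbl1xr1, Med13l, Nipbl, Ankrd11, Auts2, Tcf20), 0 passed in each comparison. Ep300, a histone acetyltransferase, was at 40.1, 39.6 and 38.2 CPM in wildtype, 33.5, 38.2 and 40.7 in knockout, 41.6, 42.6 and 41.5 in exposed wildtype and 35.4, 34.5 and 39.7 in exposed knockout. The exposed groups did not overlap, with a log2 fold change of -0.2 in knockout against wildtype (-0.36 to -0.03, adjusted p = 0.558). Crebbp, its paralogue, was at -0.12 in the same comparison, and its exposed groups did not overlap either. Nipbl, which loads cohesin, was at 31.3, 33.5 and 33.7 CPM in wildtype, 28.5, 32 and 30.5 in knockout, 30.7, 31.1 and 29.2 in exposed wildtype and 28.7, 29.3 and 31.1 in exposed knockout. Wildtype lay above both exposed groups and overlapped the knockout, which had a log2 fold change of -0.11 (adjusted p = 1). Ankrd11, a corepressor partner, was at 174 to 189 CPM in exposed knockout against 157 to 164 in knockout, with a log2 fold change of 0.18 (adjusted p = 0.237). Tbl1xr1 of the NCoR corepressor, Med13l of Mediator, Auts2 of a Polycomb complex and Tcf20 lay between -0.16 and 0.12 in all 6 comparisons.

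The 5 kinases and ubiquitin ligases (Dyrk1a, Tlk2, Cul3, Trip12, Wac) had 0 past the test in each comparison. Cul3 was at 97.3, 99.7 and 103 CPM in wildtype, 100, 101 and 105 in knockout, 103, 96.1 and 91.6 in exposed wildtype and 87, 87.5 and 87.3 in exposed knockout. The exposed knockout libraries were the lowest 3 of the 12 and overlapped no other group. The log2 fold change was -0.23 against knockout (-0.36 to -0.1, adjusted p = 0.118), -0.15 against exposed wildtype (-0.29 to -0.02, adjusted p = 0.569) and -0.2 against wildtype (adjusted p = 0.122). In wildtype the effect of exposure was -0.04, and the interaction was -0.18 (-0.37 to 0, adjusted p = 0.834). With the GC and length offset, the lowest adjusted p of any regulator was 0.401 for exposure in knockout. It was 0.943 between the exposed groups. Wac, an adaptor for ubiquitination of histone H2B, was at -0.14 after exposure in knockout and -0.1 in wildtype. Dyrk1a, Tlk2 and Trip12 lay between -0.08 and 0.04 in all 6 comparisons.

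Across the 35 genes, exposure in wildtype gave 22 higher and 13 lower values, with 51.5% of all genes higher (median log2 fold change 0.055, against 0.007). Groups that did not overlap were found for 8 higher genes (Ash1l, Chd2, Chd8, Ep300, Kdm6b, Kmt2a, Nsd1 and Tcf4), against 9.84% of all genes, and for 3 lower genes (Foxp1, Myt1l and Nipbl), against 10.9%. These are 22.9% and 8.57% of the regulators. Exposure in knockout gave 15 higher and 20 lower values, with 51.8% of all genes higher (median -0.014, against 0.009). There, 2 higher genes did not overlap (Ankrd11 and Cic, 5.71% of the regulators), against 9.88% of all genes. Of the lower ones 7 did not (Bcl11a, Cul3, Foxp1, Myt1l, Phip, Tbl1xr1 and Wac, 20%), against 10.3%. The split in knockout turned with single libraries: it was 10 higher and 25 lower without knockout replicate 1, and 20 higher and 15 lower without knockout replicate 2.

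The effects of exposure in the genotypes, which rest on separate libraries, had the same sign for 20 of 35 regulators (57.1%, against 62.7% of all tested genes). Pearson's r across the regulators was 0.46, and 0.67 without Adnp, against 0.24 over all tested genes. Spearman's rho was 0.39, and 0.46 without Adnp, against 0.3 over all tested genes. All tested genes include many with fewer counts than the regulators. Genes are not independent replicates, and these values describe the libraries. Foxp1, Myt1l and Phip were lower in both, while Kdm6b, Chd2 and Kmt2a were higher in both.

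**Figure D3:**
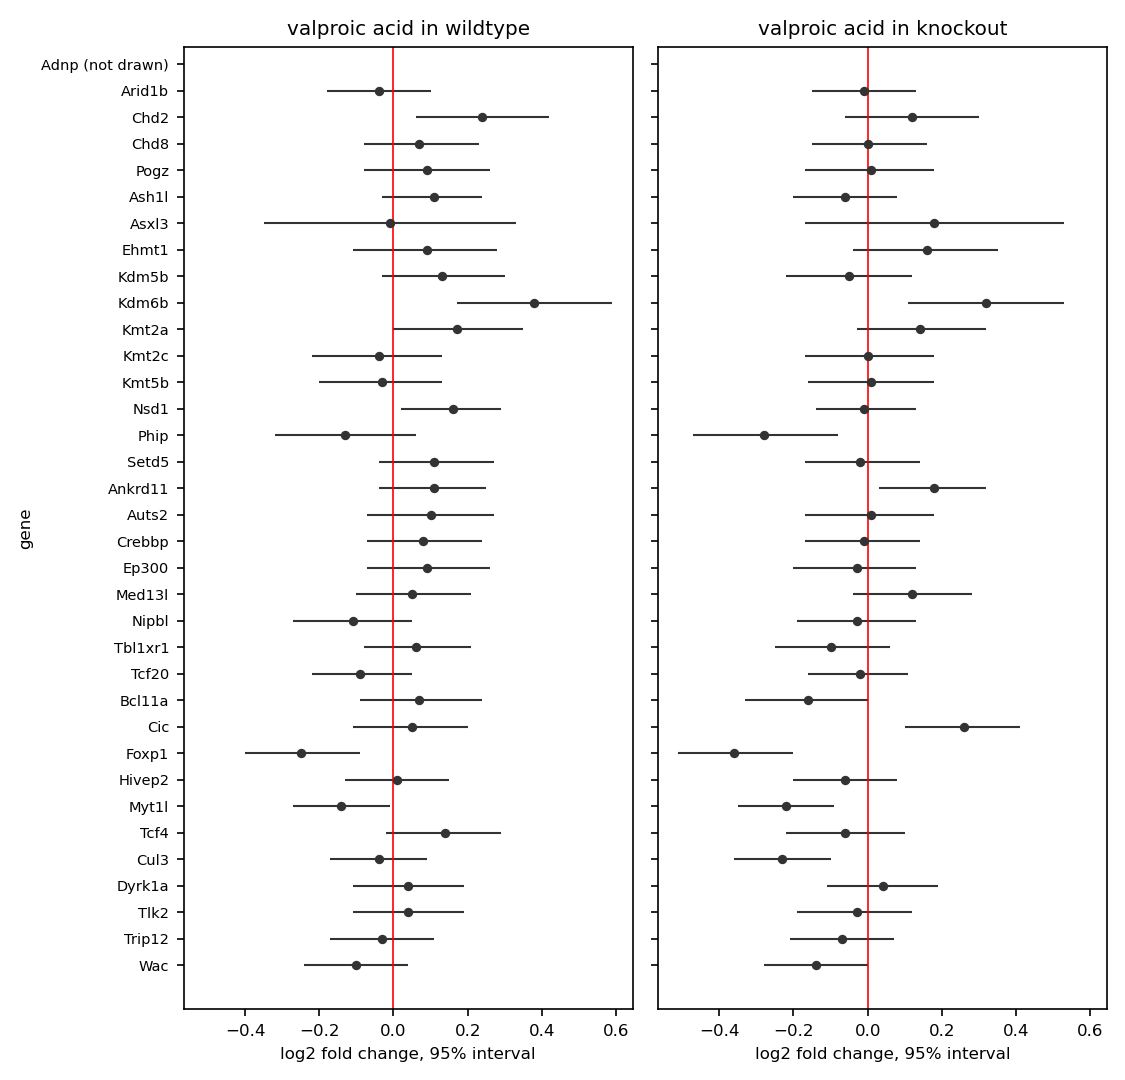
Log2 fold change (horizontal axis, points) with its 95% interval (lines) after valproic acid exposure, in wildtype on the left and in knockout on the right, for each regulator (vertical axis); Adnp is not drawn because of its few counts. Foxp1 had intervals below 0 in both genotypes (-0.4 to -0.09 and -0.51 to -0.2), Kdm6b had intervals above 0 in both (0.17 to 0.59 and 0.11 to 0.53), and most others crossed 0.

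The GC content of a gene moved with its exposure effect. Across the 34 regulators other than Adnp, r between log2 fold change and GC content was 0.74 in knockout and 0.48 in wildtype. With Adnp, over all 35, it was 0.6 and 0.47. Over all 17678 genes with a value it was 0.27 and 0.09. Spearman's rho was 0.73 and 0.42 without Adnp and 0.7 and 0.41 with it, against 0.39 and 0.14 over all genes. All genes include many with fewer counts than the regulators, so these values are not like for like. The 12 regulators lowest in GC (38.5% to 45.7%, Foxp1, Cul3 and Phip among them) were lower in 11 of 12 cases after exposure in knockout, and 5 higher and 7 lower in wildtype. The 12 highest in GC (49.5% to 61.6%, Kdm6b and Cic among them) were higher in 11 of 12 cases after exposure in wildtype, and 8 higher and 4 lower in knockout. Over all tested genes, 51.8% were higher after exposure in knockout and 51.5% in wildtype. Shares of all genes within these GC ranges were not computed. With the GC and length offset the splits of the regulators were 21 higher and 14 lower in knockout and 19 higher and 16 lower in wildtype. The median log2 fold change over all genes was then 0.021 and 0.002. All points of each comparison share the same 6 libraries.

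**Figure D4:**
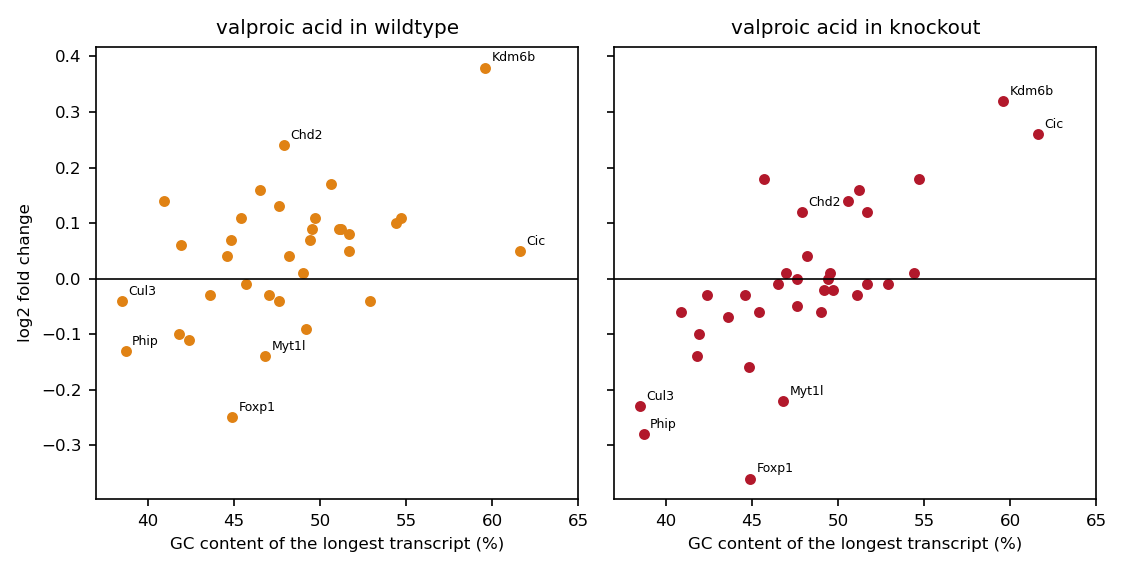
Log2 fold change after exposure (vertical axis) against GC content of the longest transcript in percent (horizontal axis) for 34 regulators, in wildtype on the left and knockout on the right, without Adnp. Points rise from low to high GC in knockout (r = 0.74) and less steeply in wildtype (r = 0.48), with Kdm6b and Cic at the high end and Cul3 and Phip at the low end.

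The knockout without exposure had the regulators at 13 higher and 22 lower values, with 49.7% of all genes higher (median -0.01, against -0.001). Kmt2c alone did not overlap, lower, 1 of 35 or 2.86% against 3.81% of all genes, and 0 were higher without overlap, against 3.58%. The split was 20 higher and 15 lower without knockout replicate 1, in which 7 of 35 regulators were above their own mean, and 8 higher and 27 lower without knockout replicate 2.

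After exposure, the knockout was lower than wildtype for 30 of 35 regulators (median -0.07, against 0.004 for all genes), where 48.8% of all genes were lower. Groups did not overlap for 8 lower genes (Ash1l, Crebbp, Cul3, Ep300, Hivep2, Nsd1, Setd5 and Tcf4; 22.9%, against 6.23% of all genes) and for 0 higher ones, against 6.96%. The 5 higher values, up to 0.15, were those of Adnp, Cic, Ehmt1, Tcf20 and, within rounding of 0, Ankrd11. Without exposed knockout replicate 2 the split was 10 higher and 25 lower. This split changed with the offset used. With the GC and length offset it was 18 higher and 17 lower (median 0.002, against 0.022 for all genes). With length alone it was 21 higher and 14 lower, where the median of all genes was 0.025. With GC alone it was 8 higher and 27 lower, where the median of all genes was 0.015. Over 17678 genes the fold change in this comparison had r = -0.16 and rho = -0.24 with log2 exon length. With GC content it had r = 0.13 and rho = 0.22. Across the 35 regulators r was -0.41 for length and 0.43 for GC content, and -0.3 and 0.5 without Adnp. The part of length or GC content in the split was not tested. Without both libraries lacking Xist, and with no offset, the split was 6 higher and 29 lower.

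**Figure D5:**
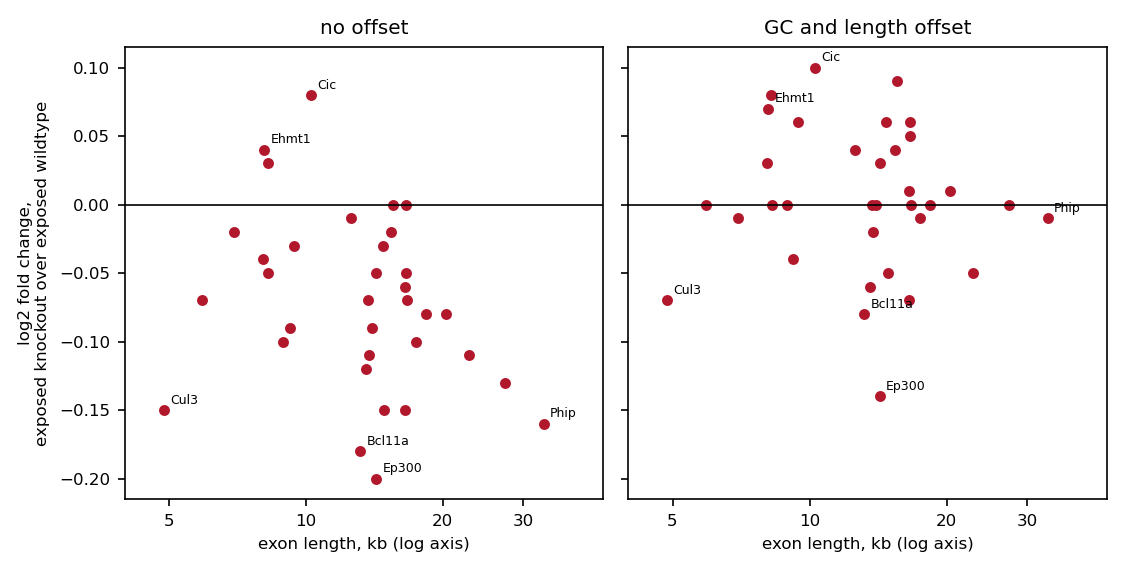
Log2 fold change in exposed knockout over exposed wildtype (vertical axis) against exon length in kb (horizontal log axis) for 34 regulators, without an offset on the left and with an offset for GC content and length on the right; Adnp is not drawn. Most points lie below 0 on the left, and they lie on both sides of 0 on the right, where Ep300 remains the lowest at -0.14.

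Exposed knockout against wildtype, which joins both factors, gave 13 higher and 22 lower values, with 52.3% of all genes higher (median -0.023, against 0.012). Kdm6b and Chd2 were higher without overlap (5.71% of the regulators, against 10.1% of all genes). Another 9 were lower without overlap (Cul3, Foxp1, Kmt2c, Myt1l, Nipbl, Phip, Tcf20, Trip12 and Wac; 25.7%, against 11%). This comparison shares its libraries with the others, so its counts are no separate evidence. With the GC and length offset the split was 19 higher and 16 lower, where the median of all genes was 0.026. The count of regulators past the test was then 0.

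Genes that act in the same complexes were mostly within the same narrow range. Of 135 partner genes tested in 7 lists, 3 passed in any comparison. These were 1 of 135 after exposure in wildtype (0.741%, against 0.895% of all genes) and 2 of 135 in exposed knockout against wildtype (1.48%, against 1.01%), shares near those of all genes. In the KMT2 and SET1 complexes (16 tested), Dpy30, a shared subunit of these methyltransferases, was at 25.1, 25.8 and 29.8 CPM in wildtype and at 20.2, 19.1 and 21.6 in exposed wildtype. It fell after exposure in wildtype (log2 fold change -0.41, adjusted p = 0.0377), and was at -0.15 in knockout (adjusted p = 0.5). Among 27 other histone methyltransferases and demethylases, Kmt5c, a writer of lysine 20 methylation on histone H4 and the paralogue of Kmt5b, was at 11.4, 14.4 and 12.2 CPM in wildtype and at 19.2, 17.4 and 17.9 in exposed knockout. It rose there (0.52, adjusted p = 0.0302), while Kmt5b was at -0.06. In cohesin (12 tested), Pds5b, a regulator of cohesin release, was at 78.1, 81.4 and 86.8 CPM in wildtype and at 63, 68.6 and 66.8 in exposed knockout, and it fell (-0.31, adjusted p = 0.028), beside -0.14 for Nipbl. The BAF complex (25 tested), CHD, ChAHP and NuRD (21), NCoR, Mediator kinase module and PR-DUB (16), and CUL3 adaptors, PRC1 and the CIC axis (18) had 0 genes past the test in every comparison.

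The log2 fold changes were -0.46 to -0.33 for Dpy30, 0.45 to 0.62 for Kmt5c and -0.35 to -0.27 for Pds5b when each library was left out, while the calls were lost in some of these fits. With the GC and length offset the log2 fold change was -0.29 for Dpy30 (adjusted p = 0.159), 0.47 for Kmt5c (0.151) and -0.18 for Pds5b (0.25). The adjusted p for Dpy30 was 0.0722 and 0.28 without wildtype replicates 2 and 3, and 0.144, 0.138 and 0.0585 without exposed wildtype replicates 1, 2 and 3. The values for Kmt5c were 0.101 and 0.136 without wildtype replicates 1 and 3, and 0.139, 0.0526 and 0.0827 without exposed knockout replicates 1, 2 and 3. Those for Pds5b were 0.0604 and 0.154 without wildtype replicates 2 and 3, and 0.128 and 0.0836 without exposed knockout replicates 1 and 3.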

How the data were processed

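RNA was measured in 12 mouse brain libraries, 3 in each of 4 groups taken from the sample titles. Per the labels' protocols, ribosomal RNA was depleted from total RNA and libraries were made with an NEB kit. The authors deposited raw counts per Ensembl gene, with no normalisation. The submitters' processing notes name HISAT2 and GRCm39 without versions. How reads were counted, on which annotation release and with which strand setting, is not given in these sources, so reads of overlapping genes cannot be assigned with certainty. Symbols were attached to 52073 identifiers, holding 99.5% of the counts. Exon length (merged exons) and GC content came from GENCODE M21 on GRCm38, an earlier build.

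Counts were analysed in R 4.3.3 with edgeR 4.0.16. Genes kept by filterByExpr (17995) were scaled by TMM factors (0.93 to 1.02) and fitted in all 12 libraries with a robust quasi-likelihood model of 4 group means. Pairwise contrasts and the interaction were tested two-sidedly, and p-values were adjusted over all tested genes by the Benjamini-Hochberg method. Intervals are 95% and come from the fitted model. The regulators, their roles and the partner and marker lists were chosen with earlier results of these data known. Per-library values were given for regulators past the test and, in each pairwise comparison, for the 3 with the smallest unadjusted p, and partner genes were named where past the test. Regulators named for other reasons, such as Phip and Ankrd11, were picked after their values were seen.

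Alternatives were DESeq2 1.42.0 size factors and Wald test, limma-voom (limma 3.58.1), no count filter, fits of only the libraries compared, a replicate block, a term for or removal of the 2 libraries lacking Xist, an offset for GC content and exon length (mgcv 1.9.3, 17678 genes), and each library left out. Chosen after the data were seen were the offset for GC or length alone, the same genes without offset, the offset without the libraries lacking Xist, and a blocked fit of unexposed libraries. The labels do not explain the replicate numbers. With group means removed, same-numbered wildtype and knockout libraries correlated at 0.12, 0.14 and 0.17. Differently numbered libraries of other groups reached 0.17 and 0.19, so these values do not establish a pairing. The replicate block was therefore fitted only as an alternative. The blocked fits gave 0 regulators past the test in knockout against wildtype, as without the block. Figures were drawn with matplotlib 3.10.9 in Python 3.11.15.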

Additional observations from a re-analysis of the deposited data

How the results depend on the processing

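No result changed direction among those past the test. In exposed against unexposed wildtype the count of regulators past the test, 0, became 1 (Kdm6b) with no count filter, with DESeq2's Wald test and in a fit of only the libraries compared. It was 0 to 1 when each library was left out. In knockout, exposure gave 1 with no count filter, 2 with DESeq2 and 0 to 1 with a library left out, against 0. Of all tested genes, 10 passed there, but 162 without exposed wildtype replicate 3, a library outside that comparison, and 2 without exposed knockout replicate 1. In exposed knockout against wildtype the count of 1 became 2 with no count filter, with DESeq2 and in a fit of only the libraries compared. It became 0 with a term for the libraries lacking Xist, without both of them, and under every offset (GC and length, either alone, with the replicate block, and without the libraries lacking Xist). It was 0 to 2 with a library left out. With the GC and length offset, fewer regulators had an unadjusted p under 0.05. The count went from 5 to 4 after exposure in wildtype and from 7 to 2 in knockout. It went from 7 to 4 in exposed knockout against wildtype and from 4 to 0 between the exposed groups. In the interaction it went from 1 to 0, and in knockout against wildtype it stayed at 0. The cause was not tested.

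The median log2 fold change of the regulators in exposed against unexposed wildtype was 0.055, against 0.007 over all genes. It was 0.005 with the GC and length offset (0.002 over all genes) and 0.005 with the replicate block added (0.003). With the offset but without the libraries lacking Xist it was -0.023 (-0.021 over all genes). With a library left out it was 0.044 to 0.066. In knockout it was -0.014 (0.009 over all genes) and 0.034 with the length offset alone (0.03 over all genes). There it was -0.056 to 0.034 with a library left out. In exposed knockout against exposed wildtype it was -0.07 without an offset (0.004 over all genes) and 0.002 with GC and length (0.022). It was 0.003 with the block added (0.023 over all genes) and 0.017 with length alone (0.025). With the offset but without the libraries lacking Xist it was 0.029 (0.061 over all genes). The interaction, at -0.071 (0.002 over all genes), was -0.001 with GC and length (0.02) and 0 with the block added (0.02). It was -0.001 with length alone (0.024 over all genes). With the offset but without the libraries lacking Xist it was 0.019 (0.058 over all genes).

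Of 18 same-numbered pairs of libraries from different groups, 3 correlated above 0.1 (range -0.12 to 0.17), all between wildtype and knockout. Differently numbered pairs reached 0.19, between exposed wildtype replicate 3 and exposed knockout replicate 1. The median was 0.03 for same-numbered and -0.01 for other pairs, and 7 of 12 libraries correlated best with their own number. With the replicate block alone the counts of regulators past the test were 0 in all comparisons but exposed knockout against wildtype, which kept 1, Foxp1 (adjusted p = 0.0371). Adnp, at 13 to 32 counts, is the regulator that depth limits most.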
